A study of Mus musculus with 6 samples.

Results

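The 43 genes described here encode the proteins that license replication origins, unwind and copy DNA, supply its building blocks and repack it into chromatin, together with the G1/S regulators of these steps. They were taken by name from a list of DNA replication and G1/S genes, by a rule that uses no measured value, although the list was drawn up with earlier results of these data known, and all 43 were found among the 23099 gene symbols of the deposited files. The values come from sequencing of polyadenylated RNA of whole pancreas from 8-week-old mice, in 3 Ela1-Myc libraries and 3 wild-type (WT) libraries. Ela1-Myc mice carry Myc, which encodes a transcription factor of growth and division, under the promoter of elastase 1, a digestive enzyme gene of acinar cells. The transgene is thereby directed to acinar cells, while the RNA came from all cells of the organ. The labels name no other allele or treatment in either group. Nothing in them says that each library is another animal, so the p-values rest on the spread among these libraries.

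Before a cell copies its DNA, the origin recognition complex (ORC), CDC6 and CDT1 load the ring-shaped MCM2-7 helicase onto origins in G1. At the start of S phase CDC45 and the GINS complex join MCM2-7 to form the active helicase, primase with polymerase alpha starts each strand, and polymerases delta and epsilon extend it, held to DNA by the PCNA clamp. Many of these genes are transcribed under E2F factors as a cell leaves G1, and most acinar cells of the adult pancreas are quiescent.

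Levels are the adjusted FPKM of the authors, a level per transcript length, divided by 100000. Sets of 3 values run over replicates 1, 2 and 3. A gene was called at a Benjamini-Hochberg adjusted p of 0.05 in limma, fitted on log2(value + 1) over 18853 symbols. No filter on low values was used. Left out were 4246 symbols listed at 0 in all Ela1-Myc libraries and at 1 shared value above 0 in each WT library. The number of reads behind a value is unknown. An exact 0 may be a failed estimate or a low level, and the values cannot tell which. Myc, the gene of the transgene, was at 52.0, 34.4 and 34.2 in the Ela1-Myc libraries, against 0, 4.10 and 0 in the WT libraries. Of all fitted symbols, between 5.27% and 9.84% were listed at 0 per Ela1-Myc library, against 11.6% to 25.0% per WT library. The 4246 symbols left out, all at 0 in Ela1-Myc and above 0 in WT, are not in these shares. The shares thus do not describe the zeros of the whole files. Genes are therefore described as listed at 0, and no fold change is given for a gene with such a value. The median symbol lay 0.59 log2 units higher in Ela1-Myc in the values as deposited, called here before scaling. Each result is therefore also given after median-of-ratios scaling, which set that median to 0.03. This scaling takes most genes as unchanged and would also remove a real rise shared by most genes. Whether the rise of the median symbol is such a change was not tested, and how the values were adjusted is not given. The 35 digestive enzyme genes made up 74.5%, 61.3% and 69.9% of the summed values in the Ela1-Myc libraries and between 91.1% and 91.3% in the WT libraries. The RNA integrity number was 8.8, 7.2 and 8.3 in the Ela1-Myc libraries, against 7.3, 7.3 and 7.1 in the WT libraries.

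Promoter sequence was available for 35 of the 43 genes in the RefSeq table (GRCm38.p6, the build of the files), as 250 bases before and 50 bases after the transcription start. Gmnn, Mcm4, Gins1, Gins2, Gins4, Prim2, Pole and Rfc2 had no entry. The letters searched, on both strands, were TTTGGCGC, TTTCCCGC, TTTCGCGC and TTTGCCGC for E2F, CACGTG for the E-box that MYC and MAX can bind, CCAAT for the box bound by NF-Y, and GGGCGG for the GC box bound by SP1. An E2F match was found in 11 of the 35 promoters (31.4%), against 2.87% of the 15629 promoters of all symbols in the files. A CCAAT box was found in 23 of 35 (65.7%, against 38.9%), a GC box in 25 of 35 (71.4%, against 47.9%) and an E-box in 7 of 35 (20%, against 8.29%). Promoters with both an E2F match and a CCAAT box numbered 8 of 35 (22.9%, against 1.23%). The E2F matches lay in Orc1, Cdc6, Cdt1, Mcm3, Mcm5, Mcm6, Mcm7, Gins3, Pola1, Pold1 and Rfc3, and the E-boxes in Pola2, Rfc1, Rpa1, Fen1, Lig1, Tyms and Chaf1a. No promoter of the list held both. These are matches of letters in a window and say nothing of binding.

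The 5 promoters printed here are shown because their genes had the highest Ela1-Myc means, taking 1 gene per role: Pcna (chr2:132253131-132253430, minus strand), Pold2 (chr11:5878207-5878506, minus strand), Mcm7 (chr5:138171834-138172133, minus strand), Rrm2 (chr12:24708004-24708303, plus strand) and Fen1 (chr19:10203872-10204171, minus strand). Each is written 5′ to 3′ on the strand of the gene, and capitals mark the E2F matches, E-boxes and CCAAT boxes.
Pcna: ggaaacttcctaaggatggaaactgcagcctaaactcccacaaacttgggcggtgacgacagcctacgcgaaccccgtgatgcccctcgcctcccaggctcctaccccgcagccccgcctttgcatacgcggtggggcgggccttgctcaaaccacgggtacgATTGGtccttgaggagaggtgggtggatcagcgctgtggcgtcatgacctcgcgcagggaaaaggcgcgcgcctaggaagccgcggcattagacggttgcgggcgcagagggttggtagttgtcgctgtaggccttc
Pold2: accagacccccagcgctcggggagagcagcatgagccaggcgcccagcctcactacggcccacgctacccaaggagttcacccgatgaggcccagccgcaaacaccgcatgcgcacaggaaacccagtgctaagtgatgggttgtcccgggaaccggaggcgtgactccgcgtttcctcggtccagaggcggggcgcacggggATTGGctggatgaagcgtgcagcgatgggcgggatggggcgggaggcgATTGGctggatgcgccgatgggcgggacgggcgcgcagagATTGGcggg
Mcm7: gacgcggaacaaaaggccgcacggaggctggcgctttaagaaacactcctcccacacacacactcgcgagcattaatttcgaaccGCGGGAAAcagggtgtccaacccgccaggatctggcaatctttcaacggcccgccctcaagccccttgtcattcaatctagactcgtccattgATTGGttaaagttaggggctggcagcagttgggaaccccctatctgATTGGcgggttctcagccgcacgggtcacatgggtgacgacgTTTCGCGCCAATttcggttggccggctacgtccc
Rrm2: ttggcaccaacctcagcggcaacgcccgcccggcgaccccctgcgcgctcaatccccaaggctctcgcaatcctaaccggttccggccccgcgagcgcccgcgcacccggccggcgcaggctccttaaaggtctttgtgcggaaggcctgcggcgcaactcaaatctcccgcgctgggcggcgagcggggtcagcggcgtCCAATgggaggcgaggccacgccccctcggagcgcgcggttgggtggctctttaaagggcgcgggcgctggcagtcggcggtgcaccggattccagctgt
Fen1: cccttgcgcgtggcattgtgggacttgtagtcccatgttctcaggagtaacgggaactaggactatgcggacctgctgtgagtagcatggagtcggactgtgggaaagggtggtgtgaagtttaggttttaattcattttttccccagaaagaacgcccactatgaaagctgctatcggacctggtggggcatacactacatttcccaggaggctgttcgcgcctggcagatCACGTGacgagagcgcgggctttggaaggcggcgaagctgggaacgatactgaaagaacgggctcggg
Mcm7 carried 2 E2F matches, at bases 86 to 93 and 267 to 274 of the window, and 3 CCAAT boxes, the last of which shares a base with the second E2F match. Fen1 carried an E-box at bases 233 to 238 and neither of the other capitals. Pold2 carried 3 CCAAT boxes, and Pcna and Rrm2 1 each, without an E2F match by these letters.

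All 43 genes were present in every Ela1-Myc library, and most had no value above 0 in WT replicates 1 and 3. The number of genes above 0 was 43 in each Ela1-Myc library, against 12, 28 and 14 in the WT libraries (exact two-sided permutation p = 0.1, which is as low as 3 libraries against 3 can reach). Of all fitted symbols 9.84%, 5.43% and 5.27% were listed at 0 in the Ela1-Myc libraries, against 18.3%, 11.6% and 25.0% in the WT libraries. Of the 43 genes 31, 15 and 29 were listed at 0 in the WT libraries. The summed level of the 43 genes was 219.7, 320.7 and 308.4 in the Ela1-Myc libraries, against 4.06, 27.7 and 3.83 in the WT libraries (exact permutation p = 0.1). The groups did not overlap in either measure. As a share of the summed values of all genes other than digestive enzymes, which no scaling of a whole library can move, the 43 genes made up 0.0792%, 0.132% and 0.135% in the Ela1-Myc libraries, against 0.00685%, 0.0161% and 0.00375% in the WT libraries (exact permutation p = 0.1). In bulk RNA, a larger number of cells that express these genes and a higher level per cell cannot be told apart.

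**Figure D1:**
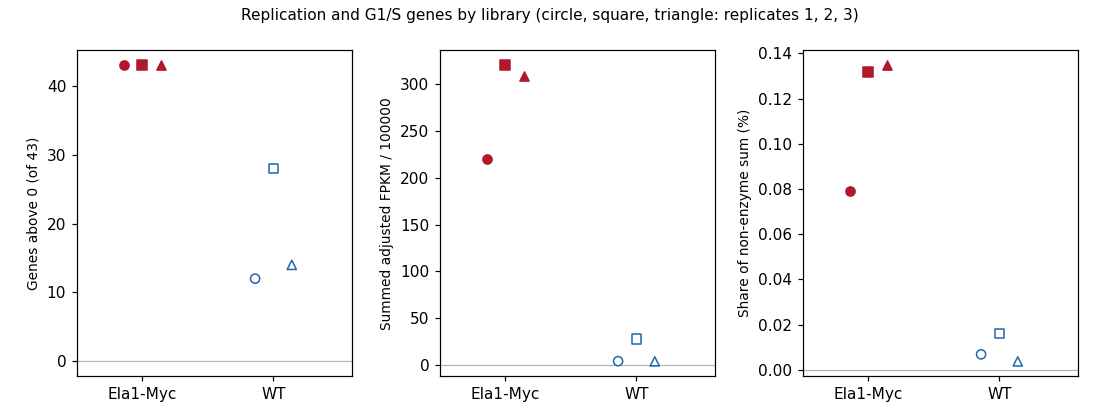
The plot shows, for each library, how many of the 43 genes have a value above 0 (left), their summed adjusted FPKM divided by 100000 (middle) and that sum as a percentage of the summed values of all genes other than digestive enzymes (right); symbols mark replicates 1, 2 and 3. Every Ela1-Myc library lies above every WT library in all 3 panels, and WT replicate 2 is the highest of its group in each.

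Before scaling all 43 genes were called higher in Ela1-Myc, with adjusted p between 0.00155 and 0.0118 (limma), where 50.8% of all fitted symbols were called higher and 0.101% lower. With the symbols of the shared WT value fitted too, all 43 were called higher, and 36.7% of symbols were called higher and 0.108% lower. After scaling 38 were called higher and none lower, with adjusted p between 0.00261 and 0.0461 among those called, where 10.8% of all symbols were called higher and 3.35% lower. The 5 that did not pass were Orc2, Gins4, Pold2, Rfc1 and Rpa3. Under quantile normalization 36 of the 43 were called higher (6.84% of symbols higher, 17.4% lower), and with equal totals of all genes but the digestive enzymes 38 were (9.13% higher, 1.7% lower). In all 43 genes the lowest Ela1-Myc value exceeded the highest WT value, before and after scaling. Of all symbols 60.9% did so before scaling and 25.1% after it, and 3.06% and 14.8% were separated the other way. The scaled count rested in part on single libraries. It was 27 without Ela1-Myc replicate 2, 23 without Ela1-Myc replicate 3 and 23 without WT replicate 3. Of all symbols 4.86%, 4.21% and 4.13% were called higher in these fits, and 0.647%, 0.632% and 1.52% lower. A pseudocount of 1 added before the division by 100000 sets a listed 0 far below any value above 0. With it 26 of the 43 were called higher (24.1% of symbols higher, 2.05% lower). The 17 that did not pass, Pcna, Mcm7, Rrm2 and Cdt1 among them, all had a listed 0 in 1 or 2 of the WT libraries. For genes with a listed 0 these p-values take that 0 as a measured value.

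Zeros in WT are given here as a description, over genes with an Ela1-Myc mean of 1 or more. That choice uses the group in which the replication genes are high. Of the 40 replication genes with such a mean, 12 (30%) were listed at 0 in all 3 WT libraries and 25 (62.5%) in at least 2. Over all 10350 symbols with such a mean, 4.3% and 12.5% were. With a filter on the mean over all 6 libraries, at 1 or more, 36 of the 43 genes were fitted. A gene at 0 in WT passes that filter through its Ela1-Myc values, so the counts of 36 before scaling (70.2% of symbols higher, 0.239% lower) and 35 after it (17.1% higher, 7.1% lower) are given for completeness.

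**Figure D2:**
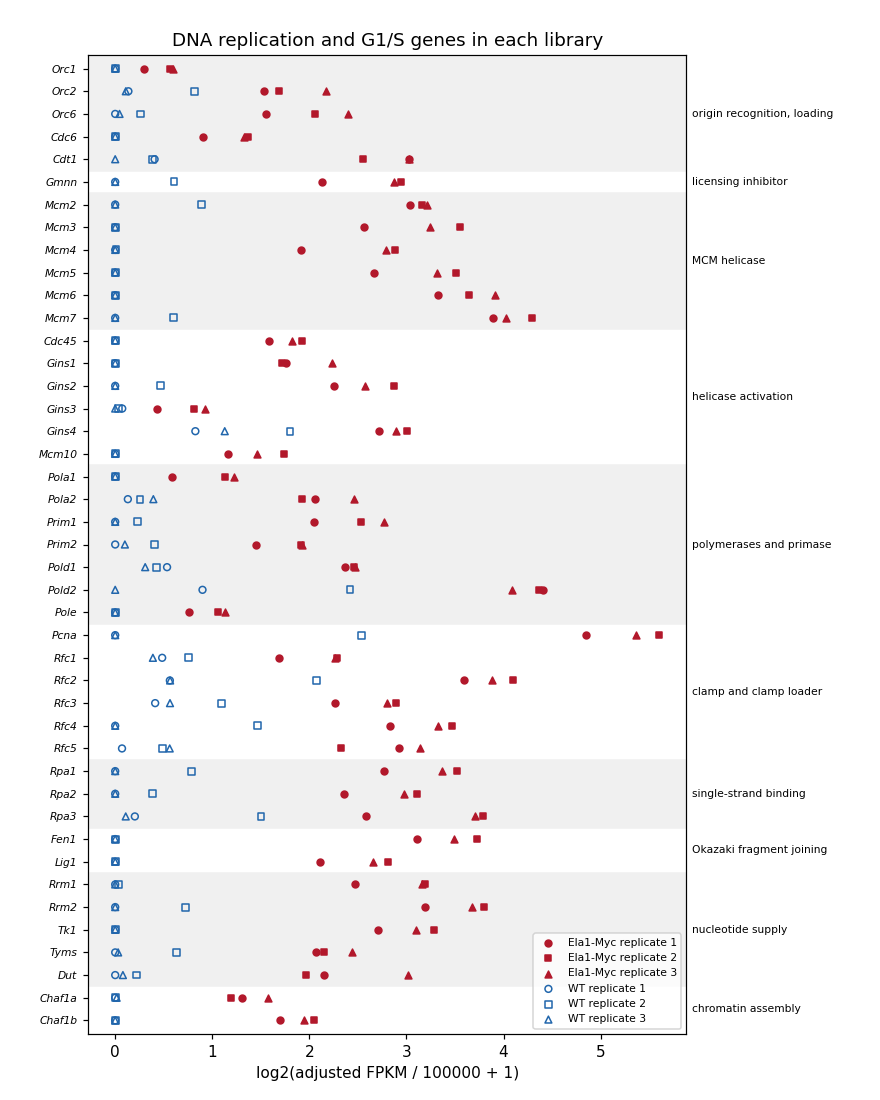
Each row is a gene, grouped by role, and each point is 1 library, with filled symbols for Ela1-Myc and open symbols for WT; the horizontal axis is log2 of the adjusted FPKM divided by 100000, plus 1. In all 43 rows the 3 Ela1-Myc points lie to the right of the 3 WT points, many of which sit at 0, and WT replicate 2 (open square) is the WT library most often off 0.

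Among the licensing genes, Cdt1, whose product brings MCM2-7 to ORC, was the most abundant, with 7.16, 4.88 and 7.13 in the Ela1-Myc libraries, against 0.325, 0.307 and 0 in the WT libraries (adjusted p = 0.00282; 0.0115 after scaling). Cdc6, which encodes the ATPase that works with CDT1, had 0.866, 1.59 and 1.51 in the Ela1-Myc libraries, against a listed 0 in every WT library (adjusted p = 0.00449; 0.00908 after scaling). The order Cdt1, Orc6, Orc2, Cdc6, Orc1 held in each Ela1-Myc library. Of the ORC subunit genes, Orc1 had the lowest level of all 43 genes in Ela1-Myc, 0.231, 0.475 and 0.516, against a listed 0 in every WT library (adjusted p = 0.0069; 0.0159 after scaling). Orc6 had 1.94, 3.17 and 4.28 in the Ela1-Myc libraries, against 0, 0.20 and 0.0313 in the WT libraries (adjusted p = 0.00537; 0.0101 after scaling). Orc2 was above 0 in every library. Its values were 1.89, 2.21 and 3.50 in the Ela1-Myc libraries, against 0.0989, 0.765 and 0.0787 in the WT libraries. It rose by 1.44 ± 0.299 log2 units (SE; adjusted p = 0.0118). Its change of 0.80 ± 0.229 after scaling did not pass (adjusted p = 0.0723), nor did the unscaled change without WT replicate 3.

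Gmnn encodes geminin, which binds CDT1 and blocks a second round of licensing in the same cycle. Its values were 3.39, 6.70 and 6.30 in the Ela1-Myc libraries, against 0, 0.521 and 0 in the WT libraries (adjusted p = 0.00463; 0.0158 after scaling). The ratio of Cdt1 to Gmnn was 2.12, 0.728 and 1.13 in the Ela1-Myc libraries, so the order of this pair was not the same in all of them.

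The 6 subunit genes of the MCM2-7 helicase were called higher before and after scaling, and none was above 0 in WT replicate 1 or 3. Mcm7 (chr5:138164589-138171862) was the highest of them, with 13.8, 18.6 and 15.2 in the Ela1-Myc libraries, against 0.517 in WT replicate 2 (adjusted p = 0.00159; 0.00352 after scaling). Mcm6 followed with 9.05, 11.5 and 14.1 in the Ela1-Myc libraries, against a listed 0 in every WT library. Its adjusted p of 0.00155, and of 0.00261 after scaling, was the lowest of the 43 genes. Mcm3 and Mcm5 spanned 4.90 to 10.7 and 5.36 to 10.4 in Ela1-Myc and had only listed zeros in WT (adjusted p = 0.00277 and 0.00256). Mcm2 had 7.19, 7.92 and 8.29 in the Ela1-Myc libraries, against 0.857 in WT replicate 2 (adjusted p = 0.00326; 0.0113 after scaling). Mcm4 was the lowest subunit gene in each Ela1-Myc library, with 2.77, 6.39 and 5.92, against 0.00558 in WT replicate 2 (adjusted p = 0.00411; 0.00888 after scaling). The protein ring holds equal numbers of each subunit, while the RNA level of Mcm7 per transcript length was 5.0, 2.91 and 2.57 times that of Mcm4 in the Ela1-Myc libraries. The exons of Mcm7 overlap those of Ap4m1 and Cops6 on the other strand and the precursors of Mir25 and Mir93 on its own, so part of its value is uncertain.

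The genes that turn the loaded ring into a working helicase were likewise higher in Ela1-Myc. Cdc45, which joins the ring together with GINS, had 2.00, 2.81 and 2.54 in the Ela1-Myc libraries, against a listed 0 in every WT library (adjusted p = 0.0029; 0.00454 after scaling). Gins1 had 2.37, 2.28 and 3.71 in the Ela1-Myc libraries, against a listed 0 in every WT library (adjusted p = 0.00344; 0.00299 after scaling). Mcm10, needed to start unwinding, had 1.24, 2.33 and 1.74 in the Ela1-Myc libraries, against a listed 0 in every WT library (adjusted p = 0.00428; 0.0117 after scaling). These 3 genes thus had no WT value above 0. Gins2 had 3.78, 6.34 and 4.97 in the Ela1-Myc libraries, against 0, 0.379 and 0 in the WT libraries (adjusted p = 0.00334; 0.0109 after scaling). Gins3 was the lowest GINS gene in each Ela1-Myc library, at 0.348 to 0.902, against at most 0.0515 in WT (adjusted p = 0.00914; 0.0409 after scaling). Gins4 was the highest GINS gene and the one above 0 in every WT library. Its values were 5.58, 7.02 and 6.44 in the Ela1-Myc libraries, against 0.772, 2.48 and 1.19 in the WT libraries. It rose by 1.62 ± 0.321 log2 units (SE; adjusted p = 0.0105), and its change of 0.53 ± 0.212 after scaling did not pass (adjusted p = 0.153).

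Of the 7 polymerase and primase genes, Pold2 (chr11:5872180-5878256), an accessory subunit of polymerase delta, was the most abundant, with 20.3, 19.6 and 16.1 in the Ela1-Myc libraries, against 0.865, 4.34 and 0 in the WT libraries. It was called before scaling (adjusted p = 0.00932) and not after it (adjusted p = 0.0839). The catalytic subunit gene Pold1 varied least of all 43 genes in Ela1-Myc before scaling, with 4.18, 4.51 and 4.54, against 0.448, 0.345 and 0.239 in the WT libraries. It rose by 2.01 ± 0.21 log2 units (SE; adjusted p = 0.00307), and by 1.14 ± 0.224 after scaling (adjusted p = 0.0263). The catalytic subunit genes of the other two replicative polymerases had lower levels. Pola1, of polymerase alpha, had 0.498, 1.20 and 1.33 in the Ela1-Myc libraries, against a listed 0 in every WT library (adjusted p = 0.00804; 0.0198 after scaling). Pole, of polymerase epsilon, had 0.691, 1.08 and 1.19 in the Ela1-Myc libraries, against a listed 0 in every WT library (adjusted p = 0.00393; 0.00546 after scaling). Per transcript length the level of Pole was 0.165, 0.239 and 0.263 times that of Pold1 in the Ela1-Myc libraries. Pola2, the second subunit of polymerase alpha, had 3.15, 2.80 and 4.49 in the Ela1-Myc libraries, against 0.0945, 0.194 and 0.313 in the WT libraries. It rose by 1.89 ± 0.238 log2 units (SE; adjusted p = 0.00427), or 1.16 ± 0.161 after scaling (adjusted p = 0.00984). The primase genes Prim1 and Prim2 spanned 3.14 to 5.84 and 1.73 to 2.78 in Ela1-Myc, against at most 0.172 and 0.326 in WT (adjusted p = 0.00326 and 0.00568; 0.00534 and 0.0196 after scaling).

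Pcna (chr2:132249286-132253180), the sliding clamp, had the highest level of the 43 genes in every Ela1-Myc library. Its values were 27.9, 47.6 and 40.1 in the Ela1-Myc libraries, against 0, 4.80 and 0 in the WT libraries (adjusted p = 0.00691; 0.0335 after scaling). In the ranking of all symbols within a library, it lay above 95.7%, 97.4% and 96.9% of them in the Ela1-Myc libraries and above 89.0% in WT replicate 2. The annotation names pseudogene copies of Pcna and of Tyms, and reads from such copies are hard to place. The clamp is opened and closed by replication factor C, whose Rfc2 gene was the highest and whose Rfc1 gene, for the largest subunit, the lowest of the 5 in each Ela1-Myc library. Rfc2 had 11.1, 16.1 and 13.7 in the Ela1-Myc libraries, against 0.477, 3.21 and 0.48 in the WT libraries. It rose by 2.79 ± 0.468 log2 units (SE; adjusted p = 0.00738), or 1.73 ± 0.404 after scaling (adjusted p = 0.042). Rfc1 had 2.22, 3.87 and 3.79 in the Ela1-Myc libraries, against 0.399, 0.686 and 0.309 in the WT libraries. All loader genes except Rfc4 were above 0 in every library, unlike any MCM2-7 gene. Rfc1 rose by 1.54 ± 0.263 log2 units (SE; adjusted p = 0.00765), and its change of 0.70 ± 0.211 after scaling did not pass (adjusted p = 0.0799). Rfc3 and Rfc5 rose by 1.97 and 2.42 log2 units, and by 1.05 and 1.61 after scaling (adjusted p = 0.00634 and 0.00426; 0.0343 and 0.0125 after scaling). Rfc4 had 6.11, 10.1 and 8.99 in the Ela1-Myc libraries, against 0, 1.76 and 0 in the WT libraries, and its scaled adjusted p of 0.0461 was the closest to the threshold among the genes called.

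The 3 subunit genes of replication protein A, which coats single-stranded DNA, were called before scaling. Rpa1 and Rpa2 spanned 5.83 to 10.5 and 4.14 to 7.62 in Ela1-Myc, against 0.724 and 0.302 in WT replicate 2 and listed zeros in WT replicates 1 and 3 (adjusted p = 0.00362 and 0.00314; 0.0116 and 0.00755 after scaling). Rpa3, for the smallest subunit, had 5.01, 12.8 and 12.03 in the Ela1-Myc libraries, against 0.151, 1.83 and 0.078 in the WT libraries. It rose by 2.75 ± 0.509 log2 units (SE; adjusted p = 0.00879), and its change of 1.90 ± 0.477 after scaling did not pass (adjusted p = 0.0506). The flap endonuclease gene Fen1 and the ligase gene Lig1, whose products finish the fragments of the lagging strand, had only listed zeros in WT. Fen1 (chr19:10199139-10203943) had 7.64, 12.2 and 10.2 in the Ela1-Myc libraries (adjusted p = 0.00159; 0.00299 after scaling). Lig1 had 3.32, 6.04 and 5.31 in the Ela1-Myc libraries (adjusted p = 0.0029; 0.00559 after scaling). The ratio of Fen1 to Lig1 was 2.3, 2.02 and 1.93 in these libraries.

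**Figure D3:**
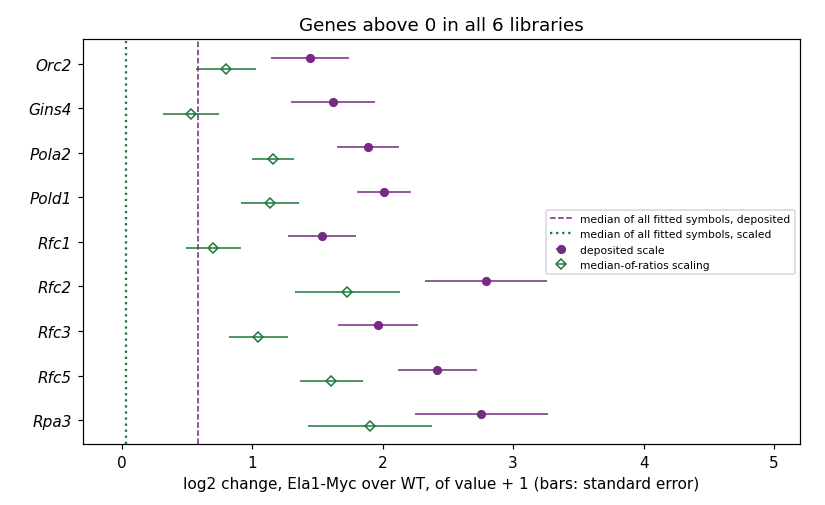
The plot gives the log2 change, Ela1-Myc over WT, of value plus 1 for the 9 genes above 0 in all 6 libraries, before scaling (circles) and after median-of-ratios scaling (diamonds), with bars for the standard error; the vertical lines mark the median of all fitted symbols on each scale. Every gene lies above the median of its scale, from 1.44 to 2.79 before scaling and from 0.53 to 1.90 after scaling.

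The 9 genes above 0 in all 6 libraries (Orc2, Gins4, Pola2, Pold1, Rfc1, Rfc2, Rfc3, Rfc5 and Rpa3) are those whose change does not rest on a listed 0. Their median log2 change was 1.97, or 1.14 after scaling, beside 0.74 and 0.01 over all symbols above 0 in all 6 libraries. The ratio of the Ela1-Myc mean to the WT mean before scaling ran from 4.29 for Gins4 to 19.7 for Rfc5. After scaling Gins4 had 3.39, 4.47 and 3.01 in the Ela1-Myc libraries, against 1.86, 2.78 and 1.95 in the WT libraries. Scaled Rfc5 had 3.99, 2.545 and 3.64 in the Ela1-Myc libraries, against 0.12, 0.453 and 0.78 in the WT libraries. Fitted among the 11198 symbols above 0 in all 6 libraries, 9 of the 9 were called higher before scaling (63% of those symbols higher, 0.25% lower). After scaling 7 of the 9 were (5.57% higher, 5.98% lower), the exceptions being Gins4 and Rfc1. In the scaled fit over all 18853 symbols 5 of the 9 were called, since Orc2 and Rpa3 did not pass there either.

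Genes for the supply of nucleotides were all called higher before and after scaling. Rrm2 (chr12:24708254-24714146), the regulated subunit of ribonucleotide reductase, had 8.12, 12.9 and 11.8 in the Ela1-Myc libraries, against 0, 0.648 and 0 in the WT libraries (adjusted p = 0.0027; 0.0066 after scaling). Its partner Rrm1 had 4.55, 8.15 and 7.93 in the Ela1-Myc libraries, against 0, 0.0227 and 0 in the WT libraries (adjusted p = 0.00264; 0.00396 after scaling). The ratio of Rrm2 to Rrm1 was 1.79, 1.58 and 1.48 in the Ela1-Myc libraries, so Rrm2 was the higher of the pair in each. Tk1, the thymidine kinase that salvages thymidine, had 5.54, 8.74 and 7.56 in the Ela1-Myc libraries, against a listed 0 in every WT library (adjusted p = 0.00203; 0.00334 after scaling). Tyms, thymidylate synthase, spanned 3.21 to 4.43 in Ela1-Myc, against at most 0.545 in WT (adjusted p = 0.00463; 0.0154 after scaling). Dut, whose product removes dUTP, varied most of all 43 genes among the Ela1-Myc libraries before scaling; neither this nor the rank of Pold1 held after it. Its values were 3.43, 2.89 and 7.06 in the Ela1-Myc libraries, against 0, 0.167 and 0.0566 in the WT libraries (adjusted p = 0.00525; 0.00792 after scaling). The chromatin assembly factor genes Chaf1a and Chaf1b, whose products deposit histones on new DNA, spanned 1.28 to 1.97 and 2.23 to 3.13 in Ela1-Myc. In WT 0.0102 for Chaf1a in replicate 3 was the one value above 0 (adjusted p = 0.00326 and 0.00284; 0.00299 and 0.00444 after scaling).

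Within the Ela1-Myc group the genes kept a similar order of levels but not the same level. Spearman's rho over the 43 genes was 0.914, 0.958 and 0.956 for the pairs of replicates 2 and 1, 3 and 1, and 3 and 2, as a description. Of the 43 genes, 40 had an Ela1-Myc mean of 1 or more. Ela1-Myc replicate 1 was the lowest of the group for 36 of the 43, against 46.6% of all symbols with such a mean. The median gene of the list was 1.6 times as high in replicate 2 as in replicate 1, while the median ratio of all those symbols was 1.0 in this pair. After scaling, Ela1-Myc replicate 2 was the highest for 36 of the 43, against 42.4% of those symbols. Ela1-Myc replicate 1 also had the largest enzyme share and the highest RNA integrity number of its group, and Ela1-Myc replicate 2 the smallest and the lowest. The part of tissue makeup or RNA quality in this spread was not tested.

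**Figure D4:**
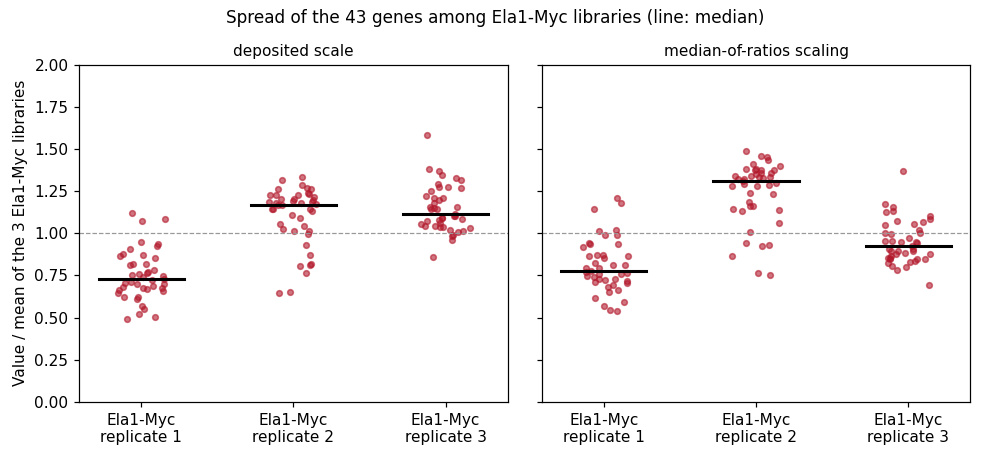
Each point is 1 of the 43 genes, given as its value in an Ela1-Myc library divided by its mean over the 3 Ela1-Myc libraries, before scaling (left) and after median-of-ratios scaling (right); black lines are medians. The median point lies at 0.729, 1.17 and 1.12 for replicates 1, 2 and 3 before scaling and at 0.779, 1.31 and 0.926 after scaling.

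The wider set of replication genes was higher too, with more exceptions. After scaling this rested mostly on genes with a listed 0 in WT. Of 46 other genes of origin firing, fork protection, polymerase subunits, nucleotide supply and S-phase chromatin, 43 were called higher and none lower before scaling (50.8% of all symbols were called higher), and 29 higher and none lower after it (10.8% of all symbols higher). Their median log2 changes were 1.39 and 0.81. The lowest Ela1-Myc value exceeded the highest WT value in 45 of the 46 before scaling and in 36 after it. Of all symbols 60.9% and 25.1% did so. The number called higher after scaling was 17 without Ela1-Myc replicate 2, 15 without Ela1-Myc replicate 3 and 16 without WT replicate 3. Of all symbols 4.86%, 4.21% and 4.13% were called higher in these fits. Under quantile normalization 28 were called higher and 2, Orc4 and Tk2, lower (6.84% of all symbols higher, 17.4% lower). Only zeros were listed in WT for 17 of them, among them the initiation kinase genes Cdc7 and Dbf4, the fork genes Timeless and Clspn, and the maintenance methyltransferase gene Dnmt1. Among the 15 above 0 in all 6 libraries, fitted with the other such symbols, 12 were called higher before scaling (63% of those symbols were) and 2 after it (5.57% of those symbols were). The median log2 change of these 15 was 1.00 before scaling and 0.11 after it, beside 0.74 and 0.01 over all such symbols. By the rule on level, Dtymk, the kinase gene for dTMP, had 39.5, 36.1 and 29.5 in the Ela1-Myc libraries, against 0, 4.11 and 0 in the WT libraries (adjusted p = 0.00616; 0.0287 after scaling). Rnaseh2c (a subunit of RNase H2), Pold4 (polymerase delta), Chtf8 (an alternative clamp loader), Pole3 (polymerase epsilon) and Samhd1 (a dNTP hydrolase) passed before scaling, and these 5 did not after it (adjusted p between 0.064 and 0.656). The 3 not called before scaling were the ORC subunit gene Orc4, the mitochondrial thymidine kinase gene Tk2 and the histone chaperone gene Asf1a. Their log2 changes were 0.65, 0.78 and 0.38 (adjusted p = 0.084, 0.0628 and 0.361), and -0.24, -0.35 and -0.52 after scaling (adjusted p = 0.378, 0.218 and 0.214). Asf1b, the paralog of Asf1a, had 2.88, 5.17 and 4.72 in the Ela1-Myc libraries, against a listed 0 in every WT library (adjusted p = 0.00314; 0.00587 after scaling).

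Markers of other cell types were read beside the same shares of all symbols, of which 50.8% were called higher before scaling and 10.8% higher and 3.35% lower after it. No marker of these cell types was called lower before scaling. Of the 10 macrophage markers, 10 were called higher before scaling, and 6 higher and none lower after it. The macrophage sum was 398.3 to 1148 in Ela1-Myc, against 0.952 to 49.9 in WT, and after scaling 242.1 to 730.6 in Ela1-Myc, against 1.56 to 79.2 in WT. Cd68 had only listed zeros in WT, and the groups did not overlap on either scale. Of the 9 stellate and fibroblast markers, 9 were called higher before scaling, and 2 higher and none lower after it. The stellate and fibroblast sum was 374.9 to 583.9 in Ela1-Myc, against 50.1 to 113.4 in WT, and after scaling 227.9 to 364.7 in Ela1-Myc, against 82.2 to 190.4 in WT. Of the 9 lymphocyte markers, 5 were called higher before scaling, and 1 higher and none lower after it. The lymphocyte sum was 19.6 to 201.8 in Ela1-Myc, against 0 to 39.5 in WT, and after scaling 11.9 to 128.4 in Ela1-Myc, against 0 to 95.2 in WT. The lymphocyte sums overlapped between the groups on both scales. Of the 10 duct markers, 7 were called higher before scaling, and none higher and 1 lower after it. The duct sum was 207.5 to 388.9 in Ela1-Myc, against 75.6 to 217.4 in WT, and after scaling 126.2 to 218.3 in Ela1-Myc, against 182.3 to 243.7 in WT. The duct ranges overlapped on both scales, and after scaling the WT range was the higher. Of the 10 endothelial markers, 5 were called higher before scaling, and none higher and 1 lower after it. The endothelial sum was 83.4 to 92.6 in Ela1-Myc, against 22.0 to 49.6 in WT, and after scaling 39.0 to 56.3 in Ela1-Myc, against 36.1 to 64.8 in WT. The median endothelial log2 change was 0.85 before scaling and -0.24 after it. Of the 10 islet markers, 3 were called higher before scaling, and 1 higher and none lower after it. The islet sum was 2445 to 3362 in Ela1-Myc, against 0.159 to 2479 in WT, and after scaling 1486 to 1821 in Ela1-Myc, against 0.384 to 2779 in WT. Before scaling, over Ela1-Myc replicates 1, 2 and 3, the macrophage sums were 398.3, 1148 and 903.5 and the lymphocyte sums 19.6, 201.8 and 119.8. Both were lowest in replicate 1 and highest in replicate 2, like the summed replication genes. The endothelial sums were 92.6, 86.4 and 83.4 and had another order, as had the duct, stellate and islet sums, which were highest in replicate 3. After scaling the duct sums were 126.2, 218.3 and 181.7, the stellate sums 227.9, 364.7 and 272.7 and the islet sums 1486, 1821 and 1570. All 3 were then lowest in replicate 1 and highest in replicate 2, as were the macrophage, lymphocyte and replication gene sums. The scaled endothelial sums were 56.3, 55.0 and 39.0. Every marker of these 6 lists other than Cd68 had a value above 0 in at least 1 WT library, and every marker had one in at least 1 Ela1-Myc library. Of the 35 digestive enzyme genes, 6 were called higher and none lower before scaling, and 3 higher and 27 lower after it. The part of these cells in the level of the replication genes was not tested.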

How the data were processed

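Whole-pancreas RNA was spiked with ERCC RNA and made into strand-specific polyA libraries by the dUTP method, per the labels' protocols. These state a minimum RNA integrity number that most of the labels' own numbers do not reach. The deposited values are adjusted FPKM, per the file headers. Per the submitters' processing notes, the build was GRCm38 (mm10) and the tools were Cufflinks 2.0.2, TopHat2 2.0.4 and Bowtie, besides FastQC 0.9.4, CASAVA 1.8 and affy. How the values were adjusted and whether counting used strand are not given in the sources used here. Exons of 14 of the 43 genes overlap a gene on the other strand in GENCODE M21.

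Replicate numbers follow the order of deposit and pair no libraries. All values were divided by 100000. Of 23422 rows the one with the highest mean per symbol was kept. In each WT library 4459 rows, at 0 in all Ela1-Myc libraries, share 1 value (within 1e-06), and their 4246 symbols were not fitted. limma 3.58.1 (R 4.3.3) with an intensity trend was fitted on log2(value + 1), group only, two-sided, and was tested on simulated data. Such log2 changes understate the change of low genes. Depth is unknown, so no counting interval is given. Single values per library were compared by exact permutation (scipy 1.17.1). The member genes, lists and tests were chosen with earlier results of these data known, though no measured value enters the rule for the members. All 43 members are named. Of the other pathway genes, the 6 with the highest mean are named, and those singled out besides were chosen after their values were seen. The alternatives were 2 other normalizations besides median-of-ratios scaling, other pseudocounts, filters on low values, array weights, the shared-value rows kept, and each library left out.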

Additional observations from a re-analysis of the deposited data

How the results depend on the processing

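Called genes numbered 9593 before scaling, and the number changed with normalization: median-of-ratios scaling gave 2658, quantile normalization 4566, and there were 2038 with equal totals without digestive enzymes and 4923 with a pseudocount of 1 before the division by 100000. With a mean of 1 or more 6203 were called, and 2129 after scaling. Among symbols above 0 in all 6 libraries 1294 were called after scaling. The share of calls that were higher was 99.8% before scaling, 76.3% after it, 28.3% under quantile normalization and 84.3% with equal totals. Leaving out 1 library gave 4332 (without WT replicate 3) to 9219 genes, with 5641 without WT replicate 1 and 5703 without Ela1-Myc replicate 3. After scaling it gave 2841, 1039 and 913 without Ela1-Myc replicates 1, 2 and 3, and 2147, 2657 and 1066 without WT replicates 1, 2 and 3. Of the 43 replication genes, 26 were called with a pseudocount of 1 before the division, 9 among symbols above 0 in all 6 libraries (7 after scaling), 42 to 43 without 1 library and 23 to 39 after scaling without 1 library (27 and 23 without Ela1-Myc replicates 2 and 3, 23 without WT replicate 3). Of the 46 other replication genes, 27 were called with equal totals and 27 with that pseudocount. With a mean of 1 or more, 25 of the 28 fitted were called, and 17 of the 28 after scaling. Genes at 0 in WT pass that filter through their Ela1-Myc values. Among symbols above 0 in all 6 libraries 12 of the 15 fitted were called (2 of the 15 after scaling). Without 1 library 38 to 43 of the 46 were called, and 15 to 30 after scaling. The scaled counts were 27, 17 and 15 without Ela1-Myc replicates 1, 2 and 3, and 26 and 16 without WT replicates 1 and 3. Of all symbols, 22.9% to 48.9% were called higher without 1 library, and 4.13% to 12.3% after scaling without 1 library. The share higher was 24.1% with that pseudocount, 63% among symbols above 0 in all 6 libraries and 5.57% there after scaling. It was 70.2% with a mean of 1 or more, 17.1% there after scaling and 9.13% with equal totals. Filters leave fewer genes to call. The cause of the other shifts was not tested. The log2 change of Pold4 turned to -0.039 without Ela1-Myc replicate 2 and -0.074 without WT replicate 3, both after scaling. No change of the 43 genes reversed in any of the 23 alternatives. Cdc6, Mcm3, Mcm4, Mcm5, Mcm6, Cdc45, Gins1, Pole, Fen1, Lig1, Rrm1, Tk1, Chaf1a and Chaf1b were called in every alternative in which they were fitted. No paired analysis was possible because the labels give the libraries no replicate numbers. With unknown depth and listed zeros in WT, the size of most changes cannot be given.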
